A study of Rattus norvegicus with 14 samples.

Results

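Chemokines are small secreted proteins that guide migrating leukocytes, and they act through G protein coupled receptors on the cells that move. Their genes were followed here in the dorsal root ganglia, the clusters of sensory nerve cell bodies beside the spinal cord, of rats that carried a muscle graft on a leg nerve. The members were all rows of the deposited tables whose gene symbol began with Ccl, Cxcl, Ccr, Cxcr or Ackr followed by a number. This gave 52 of 30562 genes, namely 20 CC ligands, 12 CXC ligands, 10 CC receptors, 6 CXC receptors and 4 atypical receptors. All 52 had at least 1 estimated count in some library. A filter on low counts left 39 of them for testing, and the other 13 were described only.

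The ganglia were those of levels L2 to L5 from 7 male wild-type (WT) rats, and each rat gave 1 library from its surgical side and 1 from its control side. In every rat the extensor digitorum longus, a muscle of the lower leg, had been grafted to the saphenous nerve of 1 hindlimb, and the other hindlimb was not operated. The groups were 4 surgical-side and 4 control-side libraries at 8 weeks (rats C, D, G and H), and 3 surgical-side and 3 control-side libraries at 6 weeks (rats A, B and E). The rats of the 2 times were different animals, the strain and age were not given in the sources used here, and the control side came from animals that had been operated on the other leg, so no library came from an animal without surgery. A library mixed the cells of its ganglia, so fewer cells of a type and less RNA per cell cannot be told apart in any value below.

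Chemokines fall into families by the spacing of their first cysteines, and a ligand often shares its receptor with close relatives. Ccl2 and Ccl7 act on Ccr2 of monocytes, Cxcl1 and Cxcl2 on Cxcr2 of neutrophils, Ccl19 and Ccl21 on Ccr7 of dendritic and T cells, and Cxcl12 on Cxcr4. Atypical receptors bind chemokines without the usual G protein signal and take them up or carry them across cells. In sensory ganglia Ccl2 and its receptor Ccr2 are known from work on nerve injury and pain in rodents, where injured neurons make Ccl2 and macrophages gather around them.

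Depth was 18489118 to 28237574 estimated counts per library. All 16 sensory neuron markers were in the tables, and their summed level ran from 1900 TPM on the surgical side of rat A to 28466 TPM on the surgical side of rat H (TPM is a level scaled for transcript length and depth). Some libraries stood apart. Spinal cord and central glia genes summed to 958 TPM on the surgical side of rat B, and skeletal muscle genes to 28529 TPM on the surgical side of rat C and 5407 TPM on the control side of rat H. The log2 differences of named members, and the medians over all members, are therefore also given without rats B, C and H where that turned a direction or moved the value by more than 1.5 times. Neutrophil markers summed to 3345 to 19642 TPM in surgical and 2821 to 14973 TPM in control libraries at 8 weeks, and to 8366 to 25558 TPM in surgical and 4231 to 24612 TPM in control libraries at 6 weeks.

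Among the 39 tested members 27 had a mean level of at least 1 TPM over the 14 libraries and 9 of at least 10 TPM. The CC ligands were led by Ccl21 (64.2 TPM), Ccl6 (44.1 TPM) and Ccl2 (36.3 TPM). Ccl27, a ligand of Ccr10, averaged 8.15 TPM, the eotaxins Ccl11 and Ccl24, which act on Ccr3, averaged 5.0 and 2.94 TPM, and Ccl19 averaged 4.71 TPM. Ccl7 averaged 4.08 TPM. Ccl3, Ccl5 and Ccl4, which draw macrophages and T cells, averaged 3.94, 3.19 and 0.545 TPM, and Ccl17, a ligand of Ccr4, averaged 1.81 TPM. The CC ligands thus held 180.0 of the 393 TPM of all members together.

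The CXC ligands were led by Cxcl12 (46.3 TPM), Cxcl14 (18 TPM) and Cxcl16 (17.5 TPM). Cxcl13, which draws B cells through Cxcr5, averaged 7.77 TPM. The interferon-induced ligands of Cxcr3, Cxcl10, Cxcl9 and Cxcl11, averaged 3.33, 2.77 and 0.273 TPM. The ligands of Cxcr2 were low, with 1.51 TPM for Cxcl1, 0.503 TPM for Cxcl2 and 0.240 TPM for Cxcl6.

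Of the CC and CXC receptors, Cxcr4 stood far above the rest at 45.1 TPM. Cxcr2 averaged 6.90 TPM, Ccr2 6.51 TPM and Ccr10 1.44 TPM. Cxcr5, Cxcr3 and Cxcr6, the receptors of Cxcl13, of Cxcl9 to Cxcl11 and of Cxcl16, averaged 0.732, 0.546 and 0.437 TPM. Ccr3 averaged 0.744 TPM, Ccr7 0.563 TPM, Ccr1l1 0.333 TPM, Ccr6 0.263 TPM and Ccr9 0.0848 TPM. The atypical receptors were well represented, with 34.3 TPM for Ackr1, the Duffy antigen of venules and red cells, 12.3 TPM for Ackr3, which takes up Cxcl12, 1.42 TPM for Ackr4, which takes up Ccl19 and Ccl21, and 1.17 TPM for Ackr2, which takes up inflammatory CC ligands. The 13 members below the filter were Ccl1, Ccl9, Ccl12, Ccl20, Ccl22, Ccl25, Ccl26, Ccl28, Cxcl3, Cxcl17, Ccr4, Ccr8 and Cxcr1, with mean levels of at most 0.299 TPM. Their highest single value was 38 counts of Ccl9, on the surgical side of rat C.

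**Figure D1:**
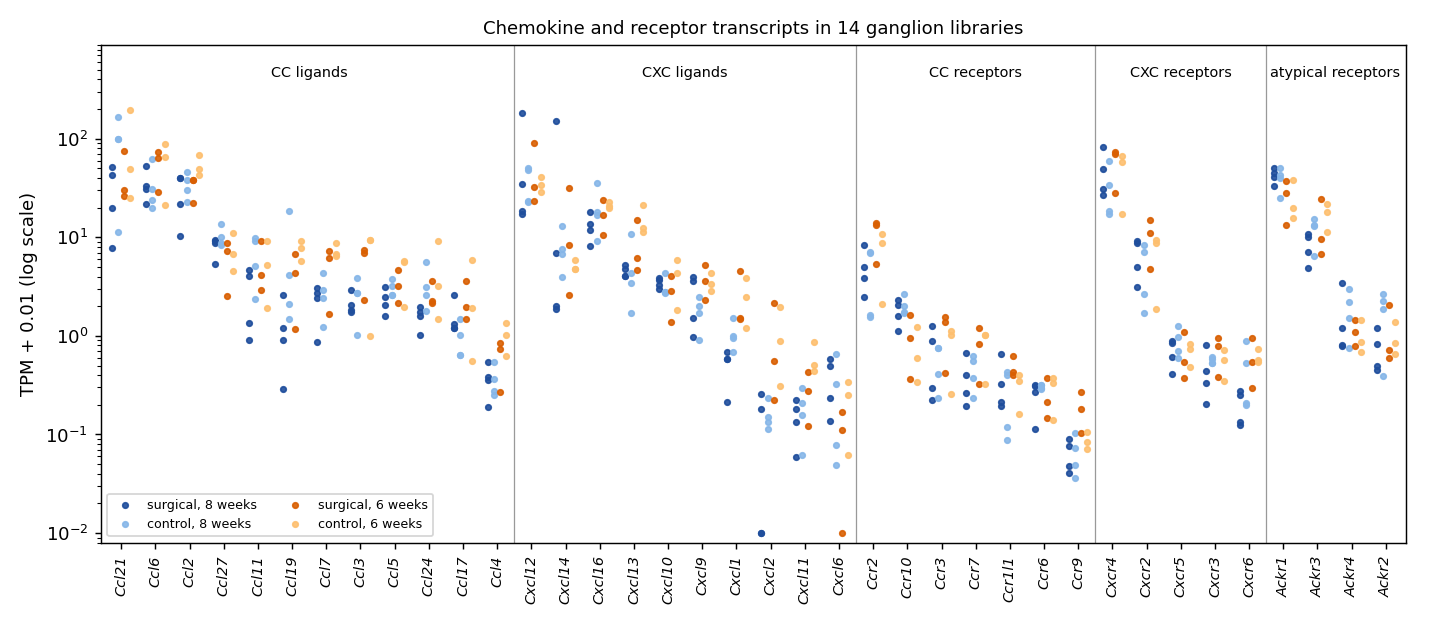
Levels of 38 of the 39 tested members in TPM plus 0.01 on a log axis, 1 point per library, grouped by role and sorted by mean level; points at 0.01 stand for a level of 0. Levels span from 64.2 TPM for Ccl21 to 0.0848 TPM for Ccr9 on average, and Cxcl12 and Cxcl14 each have 1 surgical library at 8 weeks far above the rest.

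The first comparison asked how ganglia of the surgical side differed from those of the control side of the same rats. Over both times Ccl19, Ccl2 and Ccl24 had the smallest p of the 39 members, and all of them were lower on the surgical side. No member passed an adjusted p under 0.05 in edgeR's quasi-likelihood test with the rat as a block, and neither did any of the 17035 genes tested (0.0%). At an unadjusted p under 0.05 edgeR had 2 members, or 5.13%, against 2.42% of all genes. DESeq2 and limma also had 0 members past the threshold, with 6 genes (0.0352%) for DESeq2. The log2 difference was below 0 for 26 of 39 members (66.7%), against 49.9% of all genes, and its median was -0.15 for the members and 0.00 for all genes. Without rats B, C and H the direction turned, with 15 of 39 members below 0 (38.5%) and a median of 0.13. With 1 rat left out the median was -0.05 without rat B, -0.14 without rat H, -0.21 without rat E and -0.33 to -0.27 without rat A, C, D or G.

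Ccl19, which with Ccl21 guides dendritic and T cells through Ccr7, was the member whose sides differed most evenly. Its levels were 0.281, 1.20, 0.904 and 2.56 TPM on the surgical sides of rats C, D, G and H, against 2.10, 1.48, 4.14 and 18.3 TPM on their control sides. At 6 weeks they were 4.30, 1.17 and 6.81 TPM on the surgical sides of rats A, B and E, against 5.80, 7.78 and 9.06 TPM on their control sides. In estimated counts the surgical sides held 3, 11, 9 and 22 at 8 weeks and 49, 11 and 54 at 6 weeks. The control sides held 17, 16, 42 and 169 counts at 8 weeks and 62, 95 and 81 at 6 weeks. The surgical side was thus the lower one in 7 of 7 rats, although the highest surgical value lay above the lowest control value at both times, so that the groups overlapped between rats. Among all genes tested 0.475% were lower in 7 of 7 rats, and of the members Ccl19 was the only one (2.56%). The log2 difference over both times was -1.64 ± 0.48 (SE, 7 rats), and its adjusted p in edgeR was 1.0. Without rats B, C and H it was -0.72.

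Ccl21 was the member with the highest mean level and one of the most variable. On the surgical side it stood at 7.83, 51.8, 19.7 and 42.6 TPM in rats C, D, G and H and on the control side at 164, 11.2, 98.5 and 99.2 TPM. Surgical sides of rats A, B and E, at 6 weeks, held 75.9, 26.0 and 30.3 TPM, against 49.4, 197 and 24.7 TPM on the control sides. The control sides of rats B, C, G and H were far above their surgical sides, while rats A, D and E showed the reverse order. The log2 difference was -1.16 ± 0.84 (SE, edgeR adjusted p = 1.0), and without rats B, C and H it was 0.29, the other direction. Prox1, which marks lymphatic vessels, a known source of Ccl21, was at 0.0141 to 0.495 TPM in the 14 libraries. The lymphatic markers Lyve1 and Flt4 were at 2.12 to 18.8 TPM and 0.388 to 1.86 TPM. In rat B Lyve1 was higher on the control side, while Prox1 and Flt4 were higher on the surgical side. The part of these markers in the Ccl21 values was not tested.

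Ccl2, the monocyte attractant, was at 10.2, 21.7, 39.7 and 39.7 TPM on the surgical sides of rats C, D, G and H, against 30.4, 23.0, 45.7 and 37.7 TPM on their control sides. In rats A, B and E, at 6 weeks, the surgical sides held 38.1, 22.1 and 38.6 TPM, against 43.2, 49.9 and 68.2 TPM on the control sides. The surgical values lay below all control values at 6 weeks, a separation whose share over all genes was not counted. The groups overlapped at 8 weeks, where rat H alone had the higher level on the surgical side. The log2 difference was -0.58 ± 0.24 over both times and -0.94 ± 0.36 at 6 weeks (SE), with adjusted p of 1.0 and 0.999 in edgeR. Without rats B, C and H the difference was -0.28 over both times and -0.52 at 6 weeks.

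Ccl24, an attractant of eosinophils, was at 1.57, 1.01, 1.75 and 1.93 TPM on the surgical sides of rats C, D, G and H, against 1.76, 2.56, 5.66 and 3.09 TPM on the control sides. At 6 weeks it was at 2.24, 3.56 and 2.14 TPM on the surgical sides of rats A, B and E, against 1.48, 9.26 and 3.18 TPM on the control sides. The surgical side was lower in 6 of 7 rats, the exception being rat A, and the groups overlapped. Its log2 difference was -0.69 ± 0.32 (SE, edgeR adjusted p = 1.0). Together 4 members, Ccl2, Ccl5, Ccl19 and Ccl24, were lower on the surgical side in at least 6 of 7 rats, 10.3% of the members against 3.65% of all genes.

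**Figure D2:**
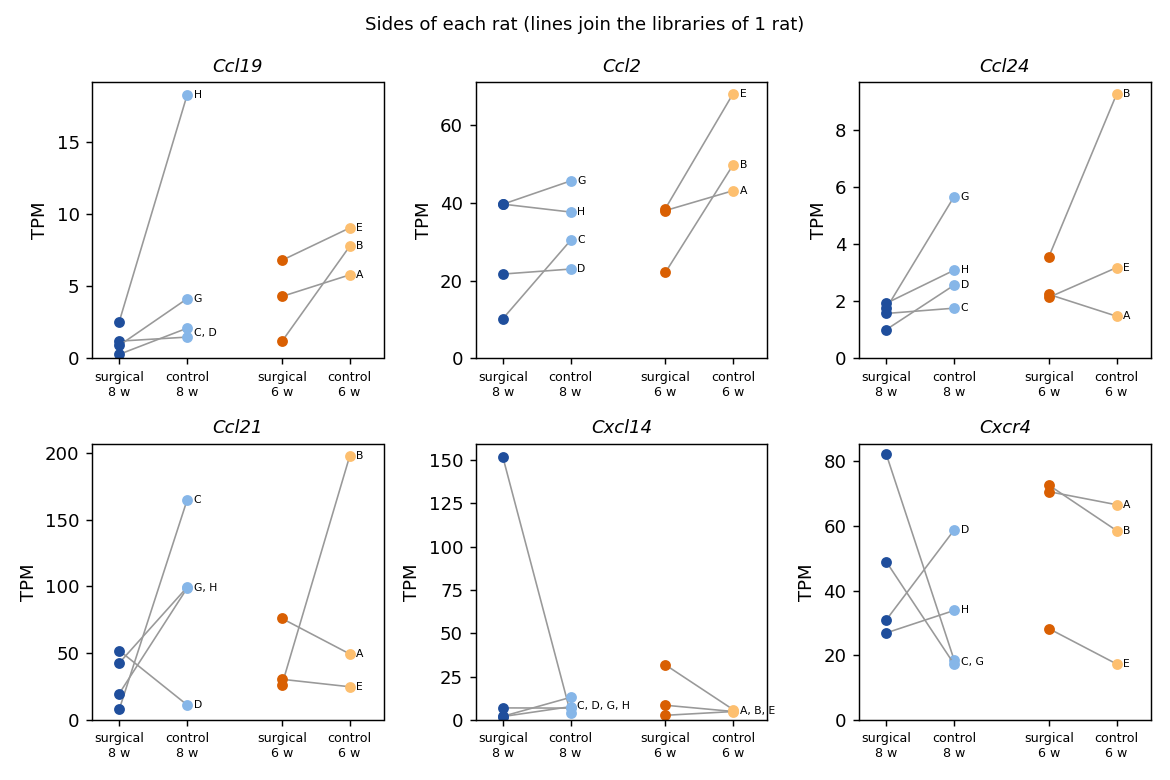
Levels in TPM of 6 members on the surgical side and the control side of each rat, at 8 weeks and at 6 weeks; a line joins the libraries of 1 rat, whose letter stands at its control value. Ccl19 is lower on the surgical side in 7 of 7 rats, while Cxcl14 on the surgical side of rat C, at 152 TPM, lies far above the other 13 libraries.

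The CXC ligands with the highest levels had their highest values in the libraries that stood apart. Cxcl12, which holds Cxcr4-bearing cells in tissues, was at 182, 17.2, 35.0 and 18.5 TPM on the surgical sides of rats C, D, G and H, against 23.5, 50.9, 22.8 and 48.4 TPM on the control sides. Surgical sides of rats A, B and E, at 6 weeks, held 32.4, 89.9 and 23.3 TPM, against 34.0, 41.2 and 28.5 TPM on the control sides. The surgical libraries of rats C and B held the 2 highest values, and in the other rats the values overlapped. The log2 difference was 0.17 ± 0.60 (SE, edgeR adjusted p = 1.0), and it was -0.26 without rats B, C and H.

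Cxcl14, a chemokine made at steady state in skin and other tissues, was at 152, 1.86, 6.87 and 1.99 TPM on the surgical sides of rats C, D, G and H, against 3.93, 7.58, 6.74 and 13.0 TPM on the control sides. In rats A, B and E, at 6 weeks, the surgical sides held 8.40, 31.8 and 2.59 TPM, against 4.8, 5.88 and 4.76 TPM on the control sides. Again the surgical libraries of rats C and B were the highest. The log2 difference was 0.33 ± 0.97 (SE, edgeR adjusted p = 1.0) and -0.34 without rats B, C and H. Fibroblast genes summed to 7150 TPM on the surgical side of rat C and 945 TPM on that of rat B, against at most 3289 TPM elsewhere. Most of the sum in rat C was Col1a1 and Col1a2 (3469 and 3041 TPM), while Dcn of the same list had its lowest level there (132 TPM). The part of the muscle, spinal cord and fibroblast genes of the surgical libraries of rats C and B in the levels of Cxcl12 and Cxcl14 was not tested.

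Cxcl16, a membrane-bound ligand of Cxcr6, was at 8.14, 13.7, 11.9 and 18 TPM on the surgical sides of rats C, D, G and H, against 18, 9.15, 16.9 and 35.3 TPM on the control sides. At 6 weeks it was at 24.0, 10.5 and 16.8 TPM on the surgical sides of rats A, B and E, against 20.8, 19.8 and 22.6 TPM on the control sides. The surgical side was lower in 5 of 7 rats, with overlapping groups and a log2 difference of -0.48 ± 0.26 (SE, edgeR adjusted p = 1.0). Without rats B, C and H it was 0.00.

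The receptors and Ccl6 varied among rats on both sides. Cxcr4 was at 82.3, 30.9, 49.0 and 26.9 TPM on the surgical sides of rats C, D, G and H, against 18.6, 58.7, 17.3 and 33.9 TPM on the control sides. Surgical sides of rats A, B and E, at 6 weeks, held 70.7, 72.7 and 28.2 TPM, against 66.6, 58.6 and 17.3 TPM on the control sides. Rats A, B, C, E and G had the higher level on the surgical side, the groups overlapped, and the log2 difference was 0.44 ± 0.42 (SE, edgeR adjusted p = 1.0).

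Ackr1 was at 32.9, 44.9, 41.2 and 49.9 TPM on the surgical sides of rats C, D, G and H, against 40.1, 50.9, 42.4 and 25 TPM on the control sides. In rats A, B and E, at 6 weeks, the surgical sides held 13.3, 27.9 and 37.5 TPM, against 19.7, 15.8 and 38.4 TPM on the control sides. The sides overlapped throughout, and the log2 difference was 0.06 ± 0.15 (SE, edgeR adjusted p = 1.0). It was -0.16 without rats B, C and H.

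Ccl6, a rodent chemokine of myeloid cells in the mouse, was at 30.9, 21.9, 52.6 and 33.4 TPM on the surgical sides of rats C, D, G and H, against 23.7, 31.0, 19.9 and 63.0 TPM on the control sides. At 6 weeks it was at 73.6, 64.0 and 28.5 TPM on the surgical sides of rats A, B and E, against 65.2, 88.3 and 21.1 TPM on the control sides. Neither side was the higher one throughout, and the log2 difference was 0.05 ± 0.33 (SE, edgeR adjusted p = 1.0). It was 0.42 without rats B, C and H and -0.08 in a fit without the rat as a block.

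At 8 weeks alone 24 of 39 members (61.5%) had a log2 difference below 0, against 49.0% of all genes, with medians of -0.12 and 0.01. No member and no gene passed in edgeR (0.0%), 1 member had an unadjusted p under 0.05 (2.56%, against 1.06% of all genes), and DESeq2 had 4 genes (0.0235%) and 0 members. That member was Ccl19, with a log2 difference of -1.95 ± 0.68 (SE, edgeR adjusted p = 1.0), and of -1.16 without rats B, C and H. Cxcl1, a neutrophil attractant, was at 0.577, 0.201, 0.681 and 0.574 TPM on the surgical sides of rats C, D, G and H, against 0.988, 0.684, 1.52 and 0.934 TPM on the control sides. It was lower on the surgical side in each of these 4 rats, and every surgical value lay below every control value, by a narrow margin (log2 difference -0.91 ± 0.53, SE, edgeR adjusted p = 1.0). The surgical values of Cxcl1 stood for 10, 3, 11 and 8 counts and its control values for 13, 12, 25 and 14 counts. The share of all genes whose sides separated in this way was not counted. Cxcl9 was at 1.51, 3.58, 0.964 and 3.94 TPM on the surgical sides, against 2.49, 2.01, 0.897 and 1.70 TPM on the control sides, with the surgical level above the control level in rats D, G and H and overlapping groups (0.50 ± 0.34, SE, edgeR adjusted p = 1.0). The median of the members turned to 0.17 without rat H, with 16 of 39 below 0, and to 0.05 without rats B, C and H, and it was -0.24 without rat D or G.

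At 6 weeks alone 29 of 39 members (74.4%) had a log2 difference below 0, against 51.0% of all genes, with medians of -0.24 and -0.01. No member and no gene passed in edgeR (0.0%), 2 members had an unadjusted p under 0.05 (5.13%, against 3.21% of all genes), and DESeq2 had 44 genes (0.258%) and 0 members. The CC ligands were below 0 in 12 of 12 cases, with a median of -0.72. On the TPM scale limma had 8 of 12 below 0, and without rat B edgeR had 6 of 12 below 0 with a median of -0.04, so this count rested on rat B. Over all members the median was 0.13 without rat B, and likewise without rats B, C and H, with 15 of 39 below 0 in both fits; it was -0.70 without rat A and -0.55 without rat E.

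Beside Ccl2, the members with the smallest p at 6 weeks were Ccl27 and Cxcl11. Ccl27, which attracts skin-homing T cells, was at 2.52, 7.28 and 8.77 TPM on the surgical sides of rats A, B and E, against 6.77, 4.58 and 10.9 TPM on the control sides, and in TPM rat B went the other way (log2 difference -0.71 ± 0.29, SE, edgeR adjusted p = 0.999). Cxcl11 was at 0.419, 0.113 and 0.268 TPM on the surgical sides, against 0.497, 0.435 and 0.853 TPM on the control sides. These stood for 9, 2 and 4 counts on the surgical sides and 10, 10 and 15 counts on the control sides, and the surgical values all lay below the control values (-1.36 ± 0.71, SE, edgeR adjusted p = 0.999). How many of all genes separated in this way at 6 weeks was not counted.

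The difference between the side effects of the 2 times, 8 minus 6 weeks, was tested as an interaction. No member and no gene passed in edgeR (0.0%), 0 members had an unadjusted p under 0.05, against 1.48% of all genes, and DESeq2 had 5 genes (0.0294%) and 0 members. The difference was below 0 for 13 of 39 members (33.3%, against 45.3% of all genes), with a median of 0.13. The direction turned without rat B, with 26 of 39 below 0 (66.7%) and a median of -0.25, and without rats B, C and H, with 22 of 39 below 0 (56.4%) and a median of -0.04. The median was 0.07 without rat G and 0.21 to 0.48 without rat A, D, E or H. The smallest p belonged to Ccl4, to Ccl27 and to Cxcl13. Ccl4 differed by 0.14 ± 0.48 at 8 weeks and by -0.99 ± 0.52 at 6 weeks on the log2 scale (SE), a difference of 1.12 ± 0.71. Its levels were 0.347, 0.180, 0.373 and 0.528 TPM on the surgical sides of rats C, D, G and H and 0.356, 0.267, 0.244 and 0.535 TPM on the control sides, and at 6 weeks 0.724, 0.836 and 0.260 TPM on the surgical sides of rats A, B and E and 0.617, 1.35 and 1.02 TPM on the control sides. Ccl27 had a difference of 0.59 ± 0.38 and Cxcl13 of 1.40 ± 0.94 (SE), all with an adjusted p of 1.0 in edgeR. Ccl27, at 5.30, 9.27, 8.74 and 9.16 TPM on the surgical sides of rats C, D, G and H and 8.34, 9.99, 13.7 and 8.72 TPM on the control sides, overlapped between the sides, and on the TPM scale its difference between times was -0.01. Cxcl13 was at 4.0, 4.78, 4.07 and 5.17 TPM on the surgical sides of rats C, D, G and H and 4.31, 1.69, 3.4 and 10.8 TPM on the control sides, and in rats A, B and E at 14.9, 4.68 and 6.17 TPM on the surgical sides and 11.2, 21.1 and 12.5 TPM on the control sides. Rat B had the widest gap between its sides, and the groups overlapped at both times.

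The second set of comparisons set 8 weeks against 6 weeks on each side, in different rats. On the control side most chemokine ligands stood lower at 8 than at 6 weeks, with Cxcl2, Ccl7 and Ccl2 at the head of the list. The log2 difference was below 0 for 35 of 39 members (89.7%), against 53.7% of all genes, and its median was -1.15 for the members and -0.06 for all genes. The members' median was -0.67 without rat B. The difference was below 0 for 12 of 12 CC ligands (median -1.27), 10 of 10 CXC ligands (-1.28), 7 of 8 CC receptors (-1.11) and 5 of 5 CXC receptors (-1.0), but for only 1 of 4 atypical receptors (0.18), namely Ackr3. Without rat E 3 of the 4 atypical receptors were below 0 (-0.22). On the TPM scale the median of all genes was 0.42 higher at 8 weeks, and relative to it the members' median was -0.76, with 23 of 33 members below 0, against 23.1% of all genes. Sensory neuron markers moved with this contrast, at 23042, 25527, 26382 and 13620 TPM in sum on the control sides of rats C, D, G and H, against 6745, 2919 and 18367 TPM on those of rats A, B and E. The value of rat E lay within the 8-week range. Red blood cell genes summed to 34978, 103163, 26670 and 61275 TPM on the same control sides at 8 weeks, against 153888, 132821 and 30626 TPM at 6 weeks. Neutrophil markers summed to 3603, 10457, 2821 and 14973 TPM there at 8 weeks, against 14606, 24612 and 4231 TPM at 6 weeks. Both sums overlapped between the times. The part of the neuron, red blood cell and neutrophil markers in the members' differences was not tested.

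None of these members passed an adjusted p under 0.05 in edgeR, where 25 genes did (0.147%), and the smallest adjusted p of a member was 0.0831. At an unadjusted p under 0.05 edgeR had 16 members (41.0%, against 30.4% of all genes). Of these 15 were lower at 8 weeks (38.5%, against 16.9% of all genes lower). DESeq2 passed 9 members, all lower at 8 weeks (23.1%, against 8.8% of all genes lower), among them Ccl7, Cxcl1, Ccl2, Ccr7, Ccl4, Ackr3, Cxcl9 and Cxcl13. With limma on log2(TPM + 1) 0 members passed. The count in edgeR rested on rat E. Without it 6899 of 17367 genes passed (39.7%), and 19 members with them, 18 lower (46.2%, against 22.4% of all genes lower) and Ccr10 higher. Without any other single rat 0 members passed.

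Ccl2 had the smallest p, with the levels given above, from 23.0 to 45.7 TPM at 8 weeks and from 43.2 to 68.2 TPM at 6 weeks on the control side, where the groups overlapped in TPM. Its log2 difference was -1.25 ± 0.24 (SE), with an adjusted p of 0.0831 in edgeR and 0.000602 in DESeq2. Ccl7, its neighbour and a second ligand of Ccr2, was at 4.37, 1.22, 2.44 and 2.94 TPM on the control sides of rats C, D, G and H at 8 weeks, against 6.48, 8.78 and 6.71 TPM on those of rats A, B and E at 6 weeks. The groups did not overlap, and the log2 difference was -2.09 ± 0.44 (SE), with an adjusted p of 0.0872 in edgeR and 0.00069 in DESeq2. On the surgical side Ccl7 was at 0.849, 2.69, 2.4 and 3.07 TPM at 8 weeks, against 7.31, 1.67 and 6.14 TPM at 6 weeks, where rat B lay among the 8-week values (-1.57 ± 0.63, SE, edgeR adjusted p = 0.669).

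Cxcl2, a ligand of Cxcr2 on neutrophils, was at 0.139, 0.105, 0.223 and 0.122 TPM on the control sides at 8 weeks, against 1.96, 0.880 and 0.303 TPM at 6 weeks. In estimated counts these were 2, 2, 4 and 2 at 8 weeks and 37, 19 and 5 at 6 weeks. The groups did not overlap, but the counts of rat E lay close to the 8-week ones (log2 difference -3.47 ± 0.74, SE, edgeR adjusted p = 0.0872). On the surgical side Cxcl2 had 0, 4, 3 and 0 counts at 8 weeks and 43, 9 and 3 counts at 6 weeks.

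Cxcl9, Cxcl11 and Cxcl13 also had no overlap between the times on the control side. Cxcl9 was at 2.49, 2.01, 0.897 and 1.70 TPM at 8 weeks, against 4.35, 2.86 and 3.36 TPM at 6 weeks (-1.62 ± 0.38, SE, edgeR adjusted p = 0.0927). Cxcl13 was at 4.31, 1.69, 3.4 and 10.8 TPM at 8 weeks, against 11.2, 21.1 and 12.5 TPM at 6 weeks, with rat H just below the 6-week values (-2.23 ± 0.64, SE, edgeR adjusted p = 0.112). Cxcl11 was at 0.196, 0.147, 0.0524 and 0.287 TPM at 8 weeks, against 0.497, 0.435 and 0.853 TPM at 6 weeks (-2.32 ± 0.53, SE, edgeR adjusted p = 0.0926). With Ccl7, Cxcl2 and Ccl4 these made 6 members whose 8-week TPM all lay below the 6-week TPM (15.4%, against 2.56% of all genes). The reverse held for Ccr10 alone (2.56%, against 35.0% of all genes), at 1.73, 1.99, 2.64 and 1.69 TPM at 8 weeks and 0.583, 0.332 and 1.24 TPM at 6 weeks. In CPM, which is scaled for depth alone, Ccl2 joined the 6 lower members (17.9%, against 12.6% of all genes), and Ccr10 alone lay above (2.56%, against 11.8% of all genes).

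On the surgical side the same contrast had 31 of 39 members below 0 (79.5%, against 49.3% of all genes), with medians of -0.97 for the members and 0.01 for all genes. The median was -0.35 without rat A. On the TPM scale the median of all genes was 0.20 higher at 8 weeks, and the members' median relative to it was -0.56. No member and no gene passed in edgeR (0.0%), 10 members had an unadjusted p under 0.05, against 6.64% of all genes, all lower at 8 weeks (25.6%, against 4.87% of all genes lower), and DESeq2 had 16 genes (0.0939%) and 0 members. In TPM 5 members, all lower at 8 weeks, had no overlap, among them Cxcl1, Ccl24, Ccr9 and Cxcr6 (12.8%, against 2.13% of all genes), and 0 members lay above throughout, against 7.05% of all genes. In CPM the lower ones were Cxcl1, Cxcl13 and Ccl24 (7.69%, against 5.17% of all genes), and Ackr1 lay above throughout (2.56%, against 5.04% of all genes).

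Cxcl1 headed the surgical side, at 0.577, 0.201, 0.681 and 0.574 TPM in rats C, D, G and H at 8 weeks, against 4.55, 1.51 and 1.48 TPM in rats A, B and E at 6 weeks (-2.70 ± 0.71, SE, edgeR adjusted p = 0.669). Every 8-week value lay below every 6-week value, but those at 8 weeks stood for only 10, 3, 11 and 8 counts. On the control side its levels overlapped between the times, with 0.988, 0.684, 1.52 and 0.934 TPM at 8 weeks and 2.48, 3.84 and 1.19 TPM at 6 weeks (-2.01 ± 0.55, SE, edgeR adjusted p = 0.106; -1.31 without rats B, C and H). Ccl3, which draws macrophages through Ccr1, was at 1.73, 2.91, 2.04 and 1.83 TPM at 8 weeks, against 6.96, 7.48 and 2.33 TPM at 6 weeks, where rat E lay within the 8-week range (-1.73 ± 0.53, SE, edgeR adjusted p = 0.669). Cxcr6, the receptor of Cxcl16 on T cells, was at 0.115, 0.264, 0.124 and 0.241 TPM at 8 weeks, against 0.943, 0.284 and 0.529 TPM at 6 weeks, with no overlap in TPM but with rat B close to it (-1.83 ± 0.59, SE, edgeR adjusted p = 0.669). In estimated counts these were 6, 10, 6 and 7 at 8 weeks and 38, 9 and 16 at 6 weeks, so rat B lay within the 8-week counts. Control levels of both overlapped, Ccl3 with 2.73, 3.83, 1.0 and 2.7 TPM at 8 weeks and 9.32, 9.29 and 0.988 TPM at 6 weeks, and Cxcr6 with 0.883, 0.191, 0.198 and 0.522 TPM at 8 weeks and 0.554, 0.730 and 0.539 TPM at 6 weeks.

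**Figure D3:**
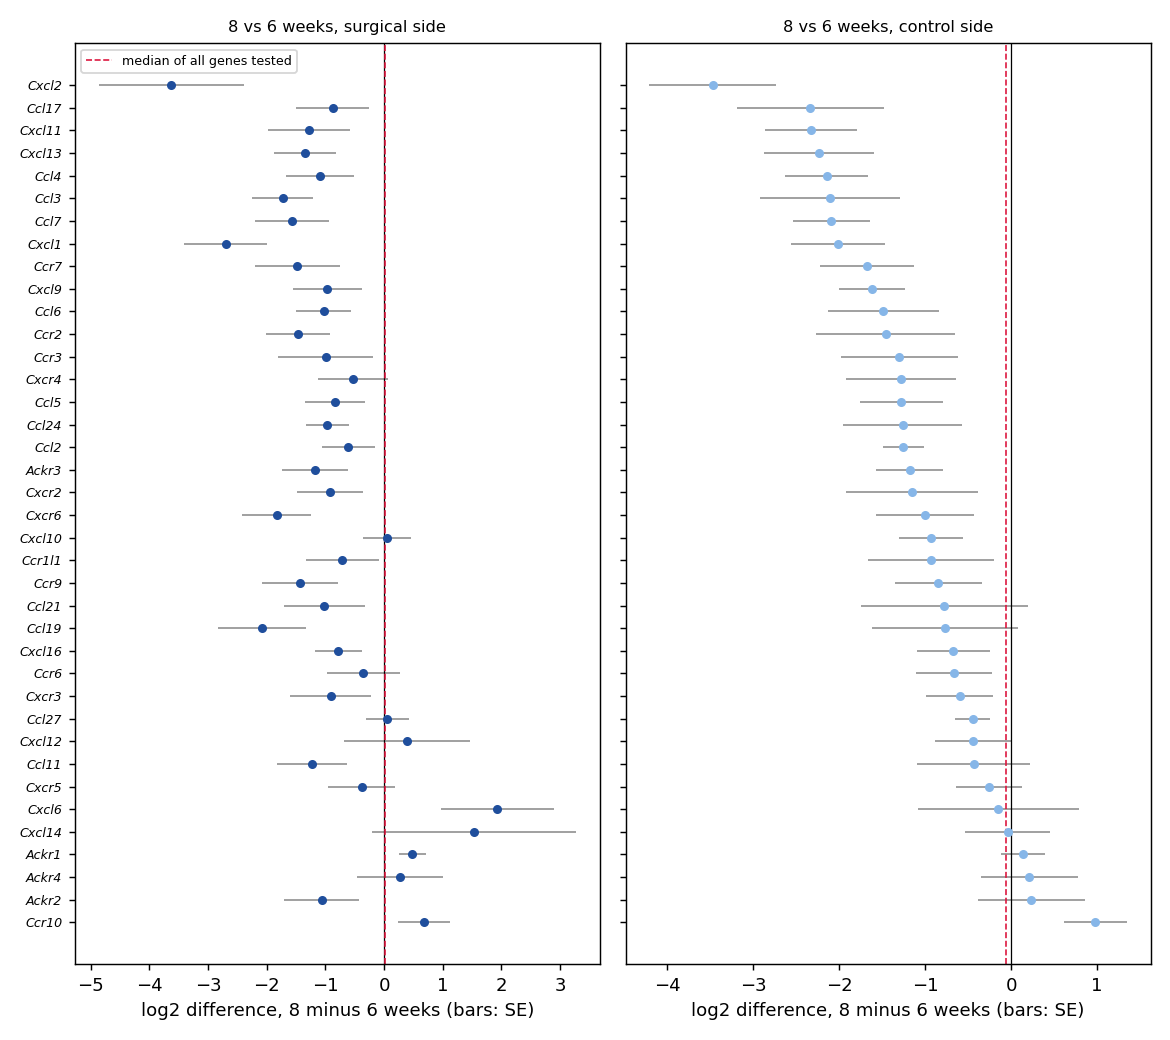
Log2 difference, 8 minus 6 weeks, of 38 of the 39 tested members on the surgical side (left) and the control side (right), from the edgeR fit with bars of 1 SE; the dashed line is the median of all genes tested. On the surgical side 30 of the 38 points lie below 0 and on the control side 34.

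On the control side the times also differed in how relative level and transcript length went together, and the members' transcripts were mostly short. The relative level was the deviation of a gene in a library from its mean over the 14 libraries. Over 15910 genes the rank correlation of this relative level with relative length was 0.133, 0.084, 0.087 and -0.025 in the control libraries of rats C, D, G and H at 8 weeks, and -0.182, -0.222 and -0.181 in those of rats A, B and E at 6 weeks. In the surgical libraries it was -0.069, 0.176, 0.018 and 0.170 at 8 weeks and -0.064, 0.160 and 0.166 at 6 weeks, so the times overlapped there, while at 6 weeks every surgical value lay above every control value. The 35 members with a length had a median at percentile 24.6 of all genes, and 18 of them lay below percentile 25. With the length trend taken out of each library, an analysis added after seeing the data, the control-side median of the 35 members was -0.92 for 8 against 6 weeks and that of all genes was 0.00. Between the sides at 6 weeks the median of the 35 members was -0.13 in that fit, against -0.24 for the 39 members in edgeR. No member passed in either contrast.

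The promoters of 4 members are shown because these members head the comparisons (Ccl7 and Cxcl2 between times, Ccl19 between sides) or, as Cxcl12, lead the CXC ligands in mean level. They run from 250 bases before to 50 bases after the transcription start in RefSeq, build GRCr8, and capitals mark the motifs found on either strand. Ccl7 lies at chr10:67513845-67514144 (plus strand), and its capitals mark, in order, an AP-1 site, a kappaB site and a TATA box.
Ccl7: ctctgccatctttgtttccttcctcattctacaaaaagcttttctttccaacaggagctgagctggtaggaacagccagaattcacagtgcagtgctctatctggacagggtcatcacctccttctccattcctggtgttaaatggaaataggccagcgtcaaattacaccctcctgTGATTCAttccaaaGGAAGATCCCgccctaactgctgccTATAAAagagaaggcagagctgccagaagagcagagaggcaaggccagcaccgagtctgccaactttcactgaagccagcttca
Cxcl2 lies at chr14:17467206-17467505 (minus strand), and its capitals mark 2 overlapping kappaB matches.
Cxcl2: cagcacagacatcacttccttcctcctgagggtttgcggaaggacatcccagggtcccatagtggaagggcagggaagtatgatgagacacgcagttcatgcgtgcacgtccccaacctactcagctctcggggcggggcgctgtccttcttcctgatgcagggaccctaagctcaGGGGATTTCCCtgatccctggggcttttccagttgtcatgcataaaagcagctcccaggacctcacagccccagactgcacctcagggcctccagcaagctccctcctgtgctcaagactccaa
Ccl19 lies at chr5:61761115-61761414 (minus strand), and its capitals mark the core of an interferon-stimulated response element.
Ccl19: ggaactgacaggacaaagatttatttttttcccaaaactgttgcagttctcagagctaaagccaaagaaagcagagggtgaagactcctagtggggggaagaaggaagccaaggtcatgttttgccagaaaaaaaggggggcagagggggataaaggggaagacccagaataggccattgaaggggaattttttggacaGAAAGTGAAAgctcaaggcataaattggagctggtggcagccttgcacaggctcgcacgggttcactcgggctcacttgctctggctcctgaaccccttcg
Cxcl12 lies at chr4:152060531-152060830 (plus strand), and none of the motifs was found in it.
Cxcl12: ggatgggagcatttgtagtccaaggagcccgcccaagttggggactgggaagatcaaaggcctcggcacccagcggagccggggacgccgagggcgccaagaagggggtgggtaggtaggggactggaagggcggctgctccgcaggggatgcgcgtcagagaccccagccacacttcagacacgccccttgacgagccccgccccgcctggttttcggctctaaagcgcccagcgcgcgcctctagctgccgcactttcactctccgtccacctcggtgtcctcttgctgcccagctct

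Of the 39 tested members 28 had a RefSeq promoter of this kind. The TATA box, TATAAA, was in 9 of them (32.1%, against 14.2% of 33469 rat promoters). An AP-1 site, TGANTCA, was in 6 (21.4% against 7.33%), and a kappaB site in 7 (25% against 7.51%), namely Ccl7, Ccr3, Cxcl1, Cxcl2, Cxcl6, Cxcl10 and Cxcl11. The response element core, GAAANNGAAA, was in Ccl19 and Cxcl10 (7.14% against 3.92%), and neither CRE, TGACGTCA, nor the E-box, CACGTG, was in any of the 28. These are matches of letters on both strands of a short window and were not tested for use.

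The members also lie close together in the genome. In RefSeq 32 of the 52 members fell into 9 groups of neighbours less than 500 kb apart. Ccl27, Ccl19 and Ccl21 form one such group on chromosome 5, and over both times their log2 differences between the sides were -0.37, -1.64 and -1.16. Ccl2, Ccl7 and Ccl11 lie together on chromosome 10 with Ccl1 and Ccl12, and on the control side they differed by -1.25, -2.09 and -0.44 between 8 and 6 weeks. Cxcl9, Cxcl10 and Cxcl11 lie together on chromosome 14 and differed by -1.62, -0.93 and -2.32 in the same contrast. In a group on chromosome 8 the differences between the sides over both times were 0.53 for Ccr2, 0.32 for Ccr3 and -0.67 for Cxcr6, which turned to 0.26 without rats B, C and H. The groups shown are 4 of the 9, chosen after their values were seen.

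Several receptors and Ccl6 were low in the libraries in which summed neutrophil markers were low. The 4 libraries with the lowest summed neutrophil markers were the surgical side of rat D and the control sides of rats C, E and G. The same 4 had the lowest summed macrophage markers, but Lyz2 made up most of that sum, with 555 to 3583 TPM of 781 to 4040 TPM. Single macrophage markers differed in this. C1qb was lowest on the control side of rat D (29.4 TPM), while Cybb was lowest in the same 4 libraries (8.53 to 12.5 TPM). The 4 libraries named were also the 4 lowest for Cxcr2, Ccr2 and Ccl6. For Ccl17, Ccr1l1, Ccr3 and Cxcr4, among others, 3 of the 4 were shared, and for 9 members, among them Ccl7, Cxcl2, Cxcl16, Ackr1 and Ackr3, none was. The like counts over all genes tested were not made, so these counts cannot be read as particular to the members. Cxcr2 was at 8.81, 3.14, 9.09 and 4.95 TPM on the surgical sides of rats C, D, G and H, against 2.67, 7.08, 1.70 and 8.32 TPM on the control sides. Surgical sides of rats A, B and E, at 6 weeks, held 11.1, 15.0 and 4.77 TPM, against 9.47, 8.68 and 1.88 TPM on the control sides. Of 7 rats 5 had more on the surgical side (log2 difference 0.61 ± 0.48, SE, edgeR adjusted p = 1.0).

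The same 4 libraries were lowest for Ccr2, with 2.45 TPM on the surgical side of rat D and 1.53, 2.09 and 1.63 TPM on the control sides of rats C, E and G, against 3.88 to 13.9 TPM in the other 10 libraries. No neutrophil or macrophage marker was at 0 in all libraries. The lowest library for S100a9, an abundant neutrophil transcript, had 745 TPM and the highest 6818 TPM. The part of leukocyte content in the levels of these members was not tested.

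**Figure D4:**
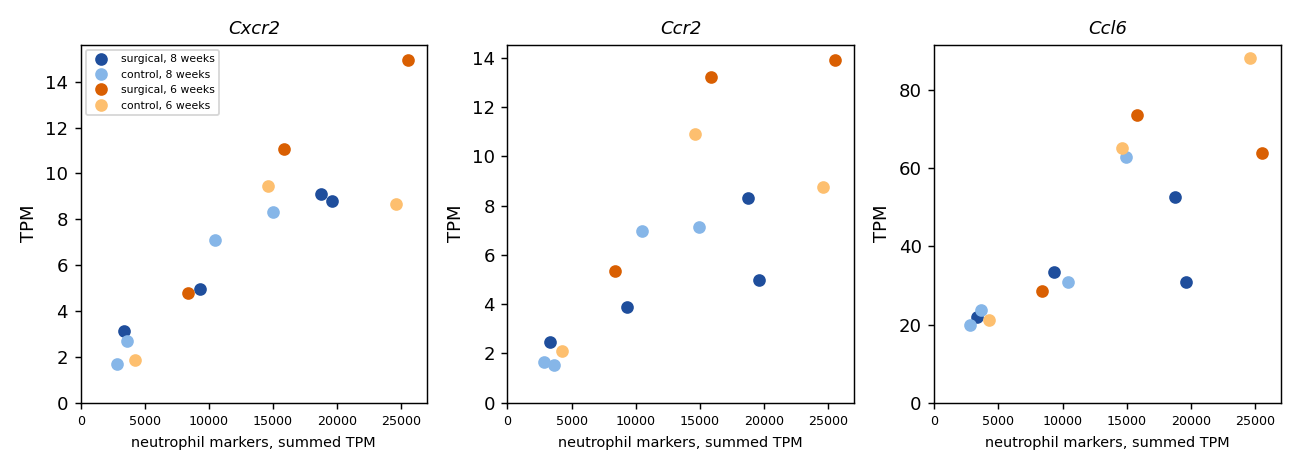
Level of Cxcr2, Ccr2 and Ccl6 in TPM against the summed level of 11 neutrophil markers in TPM, 1 point per library, coloured by side and time. S100a8 and S100a9 make up most of this sum. The 4 libraries at the left are the lowest for all 3 genes; 14 libraries from 7 rats share their rats in pairs.

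The rest of the chemokine system was followed in 4 lists. In the 12 chemokine system genes outside the name rule, 10 were tested and 0 passed in edgeR in any of the 6 comparisons. Over both times 6 of the 10 were lower on the surgical side, with a median log2 difference of -0.21. Rarres2, which encodes the attractant chemerin, was at 86.9 ± 45.5 TPM on the surgical side and 123 ± 37.6 TPM on the control side (SD, 7 rats; -0.61 ± 0.27, SE, edgeR adjusted p = 1.0), and its receptor Cmklr1 at 1.1 ± 0.231 and 1.47 ± 0.348 TPM (-0.43 ± 0.19, SE, edgeR adjusted p = 1.0).

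Of the 22 genes of chemokine receptor signalling all were tested, 17 were higher on the surgical side, and 0 passed, with a median of 0.11. Plcb2 and Dock2, which carry the signal in leukocytes, differed by 0.58 ± 0.37 and 0.45 ± 0.30 (SE, edgeR adjusted p = 1.0). Of 18 tested genes among the chemokine-inducing cytokines and the NF-kB factors, 10 were higher and 8 lower, with a median of 0.03 and 0 past the threshold. In the time contrast on the control side 16 of these 18 were lower at 8 weeks, with a median of -0.64 and a smallest adjusted p of 0.0976. Of the 14 genes of chemokine processing and retention 10 were higher on the surgical side, with a median of 0.11 and 0 past the threshold. Adam10, the protease that sheds Cxcl16, was at 24.6 ± 2.66 TPM on the surgical side and 21.3 ± 5.18 TPM on the control side (SD, 7 rats; 0.22 ± 0.09, SE, edgeR adjusted p = 1.0).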

How the data were processed

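RNA was measured in 14 libraries of rat dorsal root ganglia. The deposited tables hold estimated counts and TPM by gene, which the authors made with Salmon after FastQC and Trim Galore per the submitters' processing notes, which also name DESeq2; versions and the genome build were not given in the sources used here. The deposited estimated counts were whole numbers. Per the labels the molecule was polyA RNA, while the protocol names ribosomal depletion. Letters C and D were exchanged between titles and library names, and the title letters were used; the surgical library of rat C, titled replicate 1, was used as replicate 2.

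Tests on the estimated counts used edgeR 4.0.16 under R 4.3.3 (TMM scaling, filterByExpr with a minimum count of 10, robust quasi-likelihood, two-sided, Benjamini-Hochberg over all genes tested, threshold 0.05). Sides were compared over all libraries with a block for each rat, because both libraries of a rat letter came from 1 rat per the titles. The deviations of both sides from their group means correlated with r of -0.409 to 0.75 within rats and -0.672 to 0.617 between rats. Times were compared between rats, within a side. An SE given with an edgeR log2 difference was the size of that difference divided by the square root of its quasi-likelihood F. It was not fitted directly and is approximate. The labels name biological replicates, and a rat counted as 1 replicate. DESeq2 1.42.0 and limma 3.58.1 on log2(TPM + 1) were alternatives. The relative length of a gene came from the ratio of its count to its TPM. The script was tested on simulated counts. One tested member is counted but its own values are not reported here. The members and lists were chosen with earlier results of these data known. Named in full were the 8 tested members with the highest mean TPM and the 3 with the smallest p in each of 6 comparisons; Cxcr2 and Ccr2, Ccr10, the libraries lowest in leukocyte markers and the lymphatic markers were chosen after their values were seen.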

Additional observations from a re-analysis of the deposited data

Results flagged for a closer look

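In 40 groups of 4 libraries, 1 for each named member and 8-week group, a library stood apart from the other 3 of its group in 4 cases. Chance gives about 1 in 20 groups only for independent groups of normally spread values. These members were chosen for high levels or small p in the same data. Several of the cases also share 1 library, so their number was not set against that rate. Cxcl12 was at 182 TPM on the surgical side of rat C at 8 weeks, against 17.2 to 35.0 TPM in the other 3 surgical libraries. Cxcl14 was at 152 TPM in the same library, against 1.86 to 6.87 TPM. Ccl27 was at 5.30 TPM in the same library, below the 8.74 to 9.27 TPM of the others. That library also held 28529 TPM of skeletal muscle genes and 7150 TPM of fibroblast genes, mostly Col1a1 and Col1a2. The part of these genes in the values was not tested. Ccl19 was at 18.3 TPM on the control side of rat H at 8 weeks, against 1.48 to 4.14 TPM in the other 3 control libraries.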

How the results depend on the processing

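Counts of all genes passing in edgeR were 0 for each comparison but 1, and DESeq2 gave 6 for the sides over both times, 44 at 6 weeks, 4 at 8 weeks, 5 for the difference between times, 3166 for the times on the control side, and for those of the surgical side 16. Without the rat as a block 2 genes passed at 6 weeks, and the block changed no other count. For the times on the control side, 25 in edgeR (3 higher, 22 lower), limma on log2(TPM + 1) gave 11 (6 higher, 5 lower), without a filter 14, the fit of all 14 libraries 70, the fit with the length trend removed 10, the fit without rats B, C and H 0, and leaving out 1 rat 0 to 6899. On the surgical side limma gave 3, with a pseudocount of 0.1 5, and without a filter 6. Members passing on the control side were 9 in DESeq2 and 0 to 19 with 1 rat left out.

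Of 541 alternative values of the named members, 14 turned direction, in 6 results. Over both times Ccl21 was 0.29 without rats B, C and H, and -1.70 to -0.66 with 1 rat left out. In the same fits Cxcl12 was -0.26 (leaving 1 rat out -0.28 to 0.50), Cxcl14 -0.34 (-0.33 to 0.86) and Ackr1 -0.16 (-0.07 to 0.16). Ccl6 was -0.08 without the block, -0.09 without rat C, -0.01 without rat E and -0.19 without rat G, the lowest value, the highest being 0.25. Ccl27 in the difference between times was -0.01 in limma with and without a filter (0.26 to 0.81). The cause was not tested.

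The text rests on few animals: 3 rats at 6 weeks, and time compared between rats. Cxcl1, Cxcl2, Cxcl11, Ccl4, Ccr9 and Cxcr6 rest on few counts.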
